A study of Homo sapiens with 6 samples.

Results

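The Notch pathway was examined in human colon fibroblasts after silencing of *LTBP2*, through 10 genes chosen by symbol from the 60663 genes of the deposited count table. They are the receptor genes *NOTCH1*, *NOTCH2* and *NOTCH3*, the ligand genes *JAG1*, *JAG2* and *DLL4*, and the target genes *HES1*, *HEY1*, *HEY2* and *HEYL*. Notch receptors and their ligands are both membrane proteins, so that signalling runs between touching cells. A bound ligand exposes the receptor to ADAM proteases and then to γ-secretase, and the freed intracellular domain joins the DNA-binding protein RBPJ and a Mastermind co-activator to switch on genes such as *HES1* and *HEY1*, which encode transcriptional repressors. In connective tissue, the pathway is known for its part in the crosstalk of fibroblasts and mural cells with vessels and epithelium.

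All cells were CCD18Co, an established line of normal colon fibroblasts. They were transfected for 6 h with a pool of siRNAs against *LTBP2* (siLTBP2, 3 libraries) or with a non-targeting pool (siNT, 3 libraries), and total RNA was sequenced 48 h after transfection. *LTBP2* encodes a secreted matrix protein bound to microfibrils. Only this line and this *LTBP2* pool were used, and both groups received the transfection reagent. The labels number the libraries 1 to 3 without saying whether these were separate cultures, so that p-values measure only the spread between these libraries.

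Between 44663424 and 53576899 reads per library fell on genes. Levels are given as CPM, the read count scaled to a common library size after TMM normalisation, which corrects for library composition. SE is the standard error of a log2 fold change, and p-values, from the quasi-likelihood test of edgeR, were adjusted over all tested genes (edgeR adjusted p). For *LTBP2* itself, siNT libraries averaged 23.1 ± 1.89 CPM and siLTBP2 libraries 7.03 ± 1.39 CPM (SD, n = 3), giving log2 fold change -1.72 (SE 0.15, edgeR adjusted p = 6.6e-05). All 11 fibroblast markers were detected at 1 CPM or more, with a summed level of 13100 to 17400 CPM in siNT and 12900 to 18400 CPM in siLTBP2. Among them *PDGFRB*, a receptor also used as a mural marker, fell from 168 ± 9.69 to 110 ± 13.3 CPM (SD, n = 3, log2 fold change -0.60, edgeR adjusted p = 0.0025). The other 10 did not pass. The log2 fold changes of the 11 markers ran from -0.60 (*PDGFRB*) to 0.37 (*PDGFRA*), with a median of -0.20. In this bulk RNA, fewer cells of a kind and less RNA per cell cannot be told apart.

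*DLL4* and *NOTCH2* were higher in siLTBP2. Of the 10 genes, 8 passed the low-count filter, and 0 of these were called lower. *DLL4* rose 1.80-fold and *NOTCH2* 1.28-fold, each with an adjusted p below 0.05 over all genes tested. The same threshold was passed by 19.3% of the 16920 tested genes, with 9.76% higher and 9.51% lower. The groups did not overlap in 3 of the 8 genes (*NOTCH2*, *JAG1* and *DLL4*), as in 37% of all tested genes, so that the second count sits at the background and the first rests on 2 genes. The median log2 fold change was 0.59 over the 8 genes, which ran from -0.02 to 0.97, and -0.01 over all tested genes. Of the genes above 0.59 only *DLL4* passed, and *JAG2*, *HES1* and *HEY1* did not. At the stricter thresholds used in the study, an adjusted p below 0.01 together with a more than 2-fold difference, which 2.57% of genes passed, 0 of the 8 genes were called by edgeR's quasi-likelihood test, its likelihood ratio test or DESeq2. With an unadjusted p below 0.05 and no minimum difference, 4 of the 8 differed, as did 5466 of the 16920 tested genes. The count of 2 genes was 1 without siNT replicate 2, siLTBP2 replicate 1 or siLTBP2 replicate 2, when the call of *NOTCH2* was lost. That call was also lost without siNT replicate 3, where the count was 3 because *HES1* and *HEY1* passed beside *DLL4*.

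**Figure D1:**
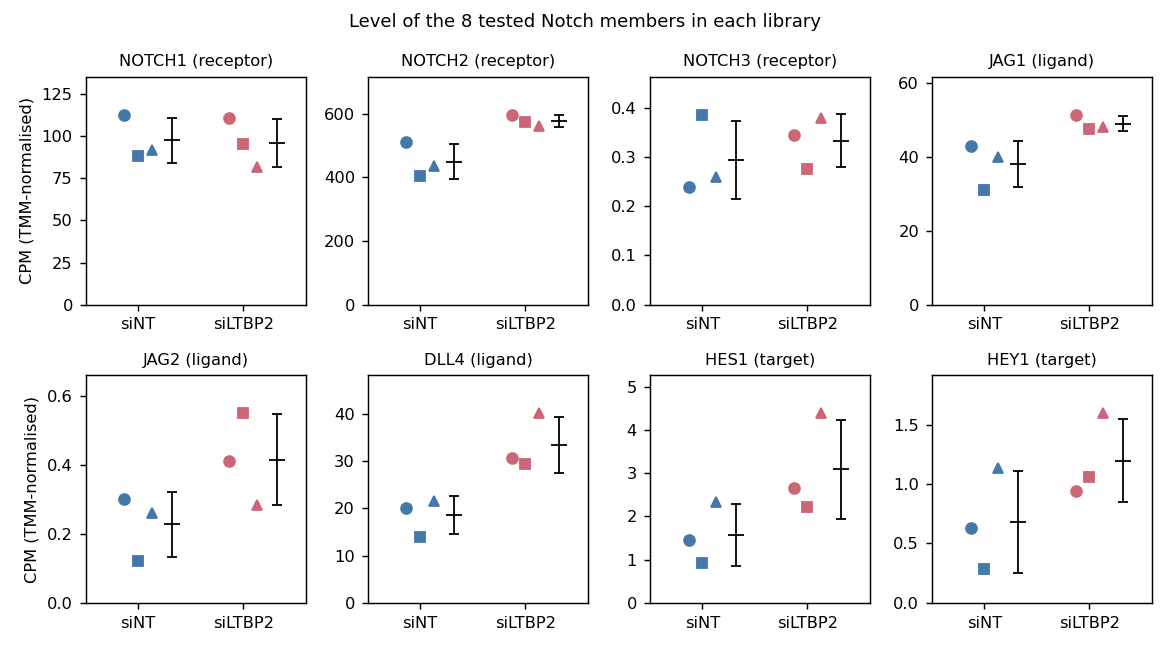
TMM-normalised CPM of the 8 tested Notch genes in each library, with circles, squares and triangles for replicates 1, 2 and 3, and a bar for the mean ± SD of 3 libraries; the vertical axes start at 0 and differ between panels. For *NOTCH2*, *JAG1* and *DLL4* each siLTBP2 library lies above each siNT library, while in the other panels the groups overlap.

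To show the regulatory sequence in front of the genes discussed most below, the 200 bases before the RefSeq start site are printed for *HES1* and for the 3 genes whose groups did not overlap (build GRCh38.p14, 5′ to 3′ on the strand of the gene). They lie at chr3:194135948-194136147 on the plus strand for *HES1*, chr15:40929140-40929339 on the plus strand for *DLL4*, chr20:10674000-10674199 on the minus strand for *JAG1* and chr1:120069663-120069862 on the minus strand for *NOTCH2*. Capitals mark TGGGAA, the core of the site that RBPJ binds, or CACGTG, the E-box read by many basic helix-loop-helix proteins. None of the windows overlaps an exon of GENCODE, and that of *NOTCH2* lies inside the GENCODE gene, where other transcripts start further upstream.
HES1: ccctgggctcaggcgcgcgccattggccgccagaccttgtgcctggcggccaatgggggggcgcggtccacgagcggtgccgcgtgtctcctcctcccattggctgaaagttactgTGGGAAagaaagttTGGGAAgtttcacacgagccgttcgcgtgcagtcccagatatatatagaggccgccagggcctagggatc
DLL4: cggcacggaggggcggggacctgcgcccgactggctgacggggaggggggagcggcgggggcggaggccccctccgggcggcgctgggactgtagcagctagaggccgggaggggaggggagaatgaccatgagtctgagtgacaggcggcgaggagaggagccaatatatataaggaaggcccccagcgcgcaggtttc
JAG1: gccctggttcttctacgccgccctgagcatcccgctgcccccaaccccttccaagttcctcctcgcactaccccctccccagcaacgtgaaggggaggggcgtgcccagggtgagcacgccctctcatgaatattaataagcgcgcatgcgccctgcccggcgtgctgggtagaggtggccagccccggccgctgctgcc
NOTCH2: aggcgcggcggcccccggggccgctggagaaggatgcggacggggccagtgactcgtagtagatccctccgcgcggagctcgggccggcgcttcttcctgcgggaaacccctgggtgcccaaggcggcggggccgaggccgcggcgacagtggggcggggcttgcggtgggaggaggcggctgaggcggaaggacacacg

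*HES1* carried TGGGAA at 84 to 79 and again at 70 to 65 bases before its start, both on the strand of the gene, and the windows of *DLL4*, *JAG1* and *NOTCH2* had no capital. Over the full promoter windows, from 250 bases before the start to 50 after it, TGGGAA was sought on both strands. It occurred in 24% of 35116 RefSeq promoters and 2 or more times in 3.8% of them. Of the 10 genes, 9 had a promoter in the table (not *HEY1*). The 3 target genes among them, *HES1*, *HEY2* and *HEYL*, had 2 copies each, and the 6 receptor and ligand genes had none. CACGTG, found in 7.26% of all promoters, was in none of the 9. The content of G and C was 68.7% to 79.7% in 8 of the 9 promoters, *HEY2* and *HEYL* included, and 59% in that of *HES1*, against a median of 58.7% over all promoters. GGGCGG, a GC box present in 45% of all promoters on either strand, occurred in the same 8 promoters and not in that of *HES1*. These matches describe letters, not bound sites.

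Among the receptors, *NOTCH2* was the most abundant and the one that rose. *NOTCH2* (ENSG00000134250, minus strand of chromosome 1 of GRCh38, 119911553 to 120100779, 34 exons in the canonical transcript) was at 511, 403 and 434 CPM in siNT replicates 1 to 3. In siLTBP2 replicates 1 to 3 it was at 596, 574 and 560 CPM. The lowest siLTBP2 library was above the highest siNT library. The siNT mean was 449 ± 55.4 CPM, the siLTBP2 mean 577 ± 17.9 CPM (SD, n = 3), and the log2 fold change 0.36 (SE 0.10, edgeR adjusted p = 0.036). The call held when siNT replicate 1 or siLTBP2 replicate 3 was left out. It was lost when siNT replicate 2 (0.29) or replicate 3 (0.34), or siLTBP2 replicate 1 (0.34) or replicate 2 (0.36), was left out, with adjusted p-values up to 0.11. The human-specific copies of its first exons can share reads with it. *NOTCH2NLA* and *NOTCH2NLC* held at most 67 and 148 counts per library against at least 19902 for *NOTCH2*, and their log2 fold changes were 0.41 and 0.53 (edgeR adjusted p = 0.27 and 0.059). *NOTCH2NLB* and *NOTCH2NLR* had at most 1 count per library. These counts do not show how many reads the copies share with *NOTCH2*, which was not tested.

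*NOTCH1* (ENSG00000148400, minus strand of chromosome 9, 136494433 to 136546048, 34 exons) was the other receptor with a sizeable level. It was at 113, 88.4 and 91.7 CPM in siNT and at 111, 95.2 and 81.9 CPM in siLTBP2. The groups lay on top of each other, with means of 97.6 ± 13.2 and 95.9 ± 14.4 CPM (SD, n = 3). The log2 fold change was -0.02 (SE 0.13, edgeR adjusted p = 0.92), and it took the other sign without siNT replicate 1 or siLTBP2 replicate 3. *NOTCH3* (ENSG00000074181, minus strand of chromosome 19, 15159038 to 15200995, 33 exons), the receptor typical of smooth muscle cells and pericytes, had only 11, 19 and 14 counts in siNT and 15, 13 and 20 in siLTBP2. At this depth a difference was not detectable (log2 fold change 0.18, SE 0.34, edgeR adjusted p = 0.76). *NOTCH4*, the endothelial receptor, had 5 to 16 counts per library (edgeR adjusted p = 0.50).

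Levels of different genes can be compared only per length, so CPM was divided by the kilobases of annotated exons (RPKM). On this scale *NOTCH2* was at 26.8 ± 3.31 RPKM in siNT and 34.4 ± 1.07 RPKM in siLTBP2, *NOTCH1* at 7.79 ± 1.05 and 7.66 ± 1.15 RPKM, and *NOTCH3* and *NOTCH4* at or under 0.0409 RPKM in each library (SD, n = 3). The libraries of *NOTCH3* and *NOTCH4* overlapped, so that only the order of *NOTCH2*, then *NOTCH1*, then these low receptors was clear. *NOTCH2* made up 77.4 ± 0.41% of the summed receptor level in siNT and 81.8 ± 1.78% in siLTBP2 (SD, n = 3). *NOTCH1* made up 22.4 ± 0.41% and 18.1 ± 1.78%. For both receptors, the shares of the groups did not overlap. As these genes made up almost the whole sum, their shares mirror each other and are 1 result.

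The ligand *DLL4* had the smallest adjusted p of the 8 tested genes. *DLL4* (ENSG00000128917, plus strand of chromosome 15, 40929340 to 40939073, 11 exons) is the Delta-type ligand best known from the tip cells of sprouting vessels. It was at 20.1, 14.0 and 21.5 CPM in siNT replicates 1 to 3 and at 30.6, 29.4 and 40.1 CPM in siLTBP2 replicates 1 to 3, from 689 to 2111 counts. Each siLTBP2 library exceeded the highest siNT library, and siLTBP2 replicate 3 was the highest. The means were 18.51 ± 3.999 and 33.4 ± 5.83 CPM (SD, n = 3), which gave a log2 difference of 0.85 (SE 0.17, edgeR adjusted p = 0.0060). With 1 library left out, the log2 fold change stayed between 0.68 and 0.97 and the adjusted p was at most 0.021.

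Since *DLL4* is used as an endothelial gene, the endothelial markers are given beside it. Of 8 markers, 3 were at 1 CPM or more (*TEK*, *VWF* and *TIE1*), and the summed level was 69.0 to 84.1 CPM in siNT and 64.0 to 78.9 CPM in siLTBP2. *CDH5*, *KDR*, *EMCN* and *CLDN5* stayed at or under 0.0742 CPM, and *PECAM1* at or under 0.254 CPM. *TIE1*, a receptor-like kinase of endothelium, rose from 1.08 ± 0.52 to 4.39 ± 1.02 CPM (SD, n = 3, edgeR adjusted p = 0.0020), whereas *TEK* was at 74.2 ± 7.85 and 68.0 ± 7.79 CPM (SD, n = 3, edgeR adjusted p = 0.48). *VWF* was at 1.58 ± 0.22 and 0.968 ± 0.23 CPM (SD, n = 3, log2 fold change -0.71, edgeR adjusted p = 0.065), with each siLTBP2 library below each siNT library, and it passed under the likelihood ratio test (0.032) and with no low-count filter (0.042).

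*JAG1* (ENSG00000101384, minus strand of chromosome 20, 10637684 to 10673999, 26 exons), a Serrate-type ligand, was at 43.1, 31.2 and 39.9 CPM in siNT and at 51.4, 47.6 and 48.0 CPM in siLTBP2. Here too the groups did not overlap, and siNT replicate 2 was the lowest library. The means were 38.1 ± 6.17 and 49.0 ± 2.06 CPM (SD, n = 3), a 1.29-fold difference that missed the threshold narrowly (log2 fold change 0.36, SE 0.12, edgeR adjusted p = 0.054). It passed under the likelihood ratio test (edgeR adjusted p = 0.030), DESeq2 (0.036), upper-quartile scaling (0.048), both other low-count filters (0.019 and 0.048) and without siNT replicate 1 (0.039), and the adjusted p reached 0.14 with another library left out. An annotated transcript on the other strand overlaps its exons, with 0 to 7 counts per library.

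*JAG2* (ENSG00000184916, minus strand of chromosome 14, 105140982 to 105168824, 26 exons), the paralog of *JAG1*, had 14, 6 and 14 counts in siNT and 18, 26 and 15 in siLTBP2. Its groups overlapped in CPM, and with so few counts the log2 fold change of 0.85 had a standard error of 0.41 (edgeR adjusted p = 0.18). An annotated transcript on the same strand overlaps the exons of *JAG2*, with 0 counts in each library, and its effect on the counts of *JAG2* was not tested. Of the ligands outside the 10 genes, *DLL1* was at 3.02 ± 0.35 and 3.83 ± 0.56 CPM (SD, n = 3), and the edgeR adjusted p was 0.21. *DLL3*, which acts inside the cell rather than as an activating ligand, had 14 to 33 counts per library, and its siLTBP2 libraries lay below its siNT libraries (log2 fold change -0.56, edgeR adjusted p = 0.21).

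Per length, *JAG1* and *DLL4* were close in siNT, at 4.09 ± 0.66 and 3.89 ± 0.84 RPKM (SD, n = 3), and *DLL4* exceeded *JAG1* in 1 of 3 libraries. In siLTBP2, *DLL4* was at 7.02 ± 1.23 RPKM and *JAG1* at 5.27 ± 0.22 RPKM (SD, n = 3), with *DLL4* above *JAG1* in 3 of 3 libraries. With the length of the canonical transcript in place of all exons, *DLL4* was below *JAG1* in 3 of 3 siNT libraries and above it in 3 of 3 siLTBP2 libraries. The share of *DLL4* in the summed level of 5 ligand genes was 42.9 ± 2.94% in siNT and 51.7 ± 5.09% in siLTBP2, and that of *JAG1* 45.4 ± 1.40% and 39.2 ± 3.42% (SD, n = 3). The groups did not overlap in either share, and as parts of one sum the shares are not independent. *DLL1*, *DLL3* and *JAG2* followed in this order in both groups. The summed ligand level was 9.02 ± 1.496 RPKM in siNT and 13.5 ± 1.01 RPKM in siLTBP2, and the summed receptor level 34.7 ± 4.34 and 42.2 ± 2.22 RPKM (SD, n = 3).

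**Figure D2:**
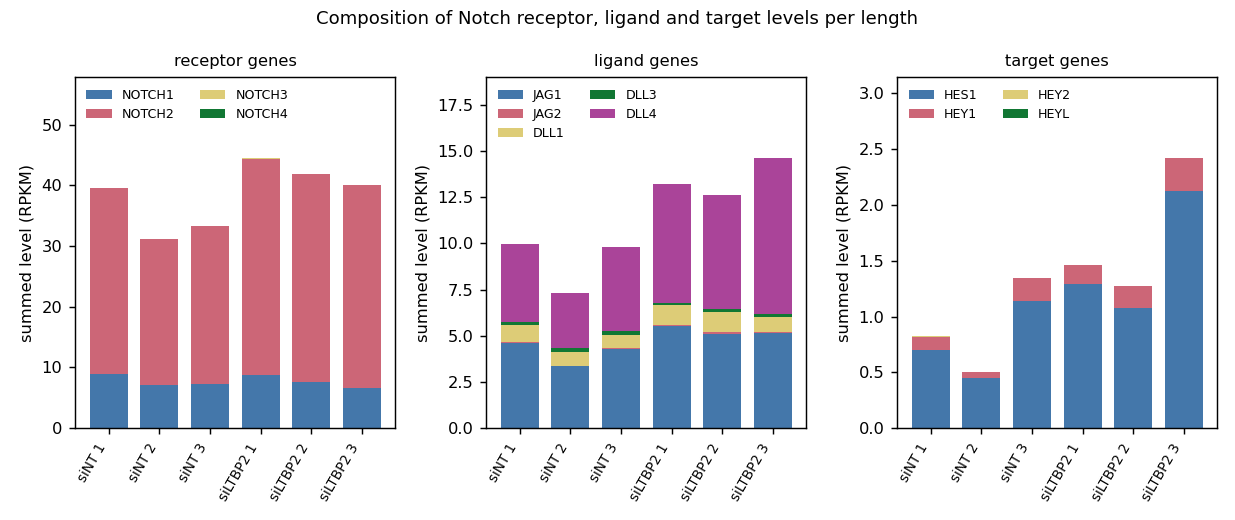
Stacked levels per length (RPKM, linear axis from 0) of 4 receptor, 5 ligand and 4 target genes in each of the 6 libraries. *NOTCH2* fills most of the receptor bars, *DLL4* and *JAG1* most of the ligand bars, and *HES1* most of the target bars, whose heights reach 1.34 RPKM in siNT and 2.42 RPKM in siLTBP2.

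The target genes were expressed at low levels, and no target gene passed the threshold in the main test, which held no replicate block. With a replicate block, which no label states, *HES1* and *HEY1* passed (edgeR adjusted p = 5.05e-05 and 0.012). *HES1* (ENSG00000114315, plus strand of chromosome 3, 194136148 to 194138732, 4 exons) is the most widely used readout of Notch activity and is also driven by other signals. It had 67, 46 and 126 counts in siNT replicates 1 to 3 and 116, 105 and 231 counts in siLTBP2 replicates 1 to 3, which correspond to 1.449, 0.932 and 2.34 CPM and to 2.66, 2.22 and 4.38 CPM. The third library was the highest in each group, and siNT replicate 3 lay above siLTBP2 replicate 2, so that the groups overlapped. The means were 1.57 ± 0.71 and 3.09 ± 1.14 CPM (SD, n = 3), 1.96-fold apart (0.97 on the log2 scale, SE 0.34, edgeR adjusted p = 0.070). The threshold was passed under the likelihood ratio test (edgeR adjusted p = 0.031), DESeq2 (0.018), with no low-count filter (0.00024) and without siNT replicate 3 (log2 fold change 1.38, edgeR adjusted p = 0.018). With any other library left out, the adjusted p lay above 0.05 and reached 0.21.

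*HEY1* (ENSG00000164683, minus strand of chromosome 8, 79762371 to 79767857, 5 exons), a related repressor, was also highest in siLTBP2 replicate 3, with 29, 14 and 61 counts in siNT and 41, 50 and 84 in siLTBP2. Its levels were 0.627, 0.284 and 1.13 CPM in siNT and 0.941, 1.06 and 1.59 CPM in siLTBP2. Again siNT replicate 3 overlapped the siLTBP2 libraries. The log2 fold change of 0.81 (SE 0.41, edgeR adjusted p = 0.20) ranged from 0.44 to 1.41 with 1 library left out, and it passed the threshold without siNT replicate 3 (edgeR adjusted p = 0.034) and with no low-count filter (0.038).

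*HEY2* (chromosome 6, 125747664 to 125761269) and *HEYL* (chromosome 1, 39623435 to 39639643) were next to absent and did not enter the test. *HEY2* had 1 count in siNT replicate 1 and *HEYL* 1 count in siLTBP2 replicate 2, with 0 in every other library. A count of 0 allows a level of up to 0.0556 to 0.0688 CPM (3 counts per library, counting error only). The 2 copies of TGGGAA in the promoters of both genes, as in that of *HES1*, went with very different levels. Per length, *HES1* made up 86.5 ± 2.81% of the summed target level in siNT and 86.9 ± 2.11% in siLTBP2 (SD, n = 3), and *HEY1* almost all of the rest.

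*HEYL* and *NOTCH3* are also typical of mural cells, so the markers of smooth muscle and pericytes are given here. Of 7 markers, 4 were at 1 CPM or more, and their summed level was 178 to 238 CPM in siNT and 264 to 346 CPM in siLTBP2. *CSPG4* rose from 126 ± 19.1 to 208 ± 23.1 CPM (SD, n = 3, edgeR adjusted p = 0.0025) and *MCAM* also rose (log2 fold change 0.67, edgeR adjusted p = 0.033). With 1 library left out, the adjusted p of *MCAM* was at most 0.11, and under 0.05 only without siNT replicate 1 or siLTBP2 replicate 3. *ACTA2* was at 64.2 ± 9.45 and 75.5 ± 14.3 CPM with overlap (SD, n = 3, edgeR adjusted p = 0.31). *RGS5* was at 3.17 ± 0.60 and 4.57 ± 0.71 CPM without overlap (SD, n = 3, edgeR adjusted p = 0.081). *MYH11*, *DES* and *CNN1* stayed at or under 0.115 CPM. *PDGFRB*, which is not in this list, fell as given above. None of 6 haematopoietic markers reached 1 CPM. The epithelial list summed to 40.3 to 52.7 CPM in siNT and 85.7 to 99.2 CPM in siLTBP2, while its members *EPCAM*, *CDH1* and *KRT20* stayed at or under 0.0405 CPM. The keratin gene *KRT18* rose from 36.4 ± 6.19 to 80.8 ± 7.66 CPM (SD, n = 3, log2 fold change 1.15, edgeR adjusted p = 0.00024), and *KRT8* was at 10.4 ± 1.06 and 13.001 ± 0.57 CPM without overlap (SD, n = 3, edgeR adjusted p = 0.085). The part of these shifts and of the endothelial markers in the values of the Notch genes was not tested.

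**Figure D3:**
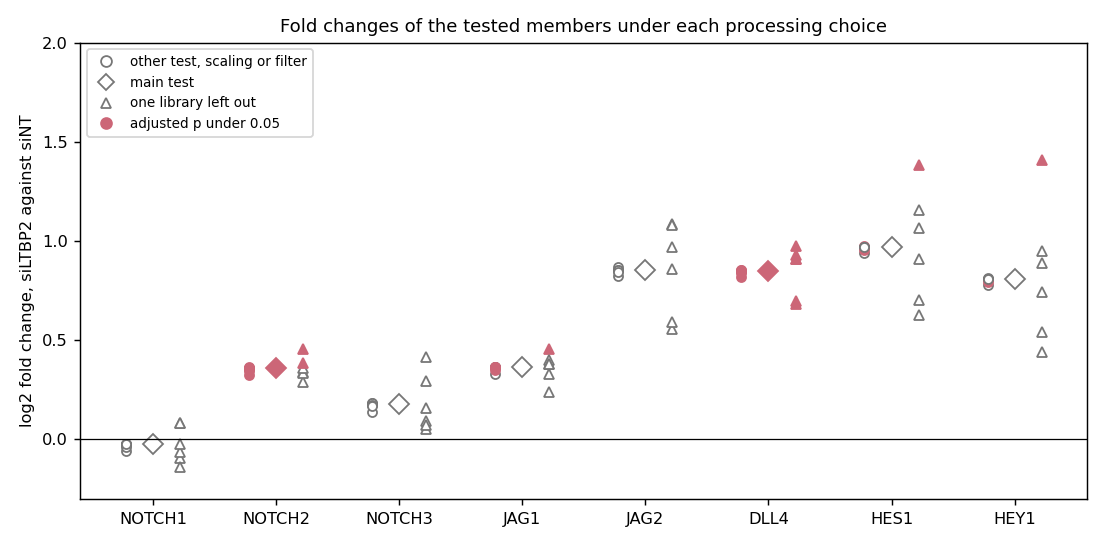
Log2 fold change of siLTBP2 against siNT (linear axis) for the 8 tested Notch genes under the main test (diamonds), under another test, scaling or filter (circles) and with 1 library left out (triangles), filled where the adjusted p was under 0.05. *DLL4* is filled throughout, *NOTCH2* loses its fill in 4 of the 6 fits with a library left out, and *HES1* and *HEY1* spread from 0.63 to 1.38 and from 0.44 to 1.41. The fit with a replicate block is not drawn.

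The machinery around the receptors was examined through 56 further genes of the pathway, of which 50 were tested. In siLTBP2, 3 were higher and 9 lower at an adjusted p below 0.05, against 9.76% and 9.51% of all tested genes in these directions. At the stricter thresholds 0 passed (by edgeR's quasi-likelihood test, its likelihood ratio test or DESeq2), against 2.57% of all tested genes. An unadjusted p below 0.05 was found for 20 of the 50 and for 5466 of the 16920 tested genes. The median log2 fold change of the 50 genes was -0.04. The counts by class given below rest on few genes each and are to be read against the same shares of all tested genes. The 3 higher genes act in receptor cleavage (*ADAM17* and *APH1B*) or in receptor trafficking (*NUMB*). The lower genes encode glycosyltransferases, the convertase furin, ubiquitin ligases, endocytic adaptors and a corepressor.

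Of the 5 glycosyltransferases that modify the extracellular repeats of Notch, 4 were tested, 3 were lower and 0 higher. *POGLUT1*, which adds O-glucose, was at 19.3, 22.2 and 23.5 CPM in siNT and at 12.05, 14.2 and 14.3 CPM in siLTBP2. No library of one group reached into the other, and the log2 fold change was -0.68 (SE 0.12, edgeR adjusted p = 0.0029). *RFNG*, a Fringe enzyme that extends O-fucose, had a log2 fold change of -0.42 (edgeR adjusted p = 0.019), and *POFUT1*, which adds the O-fucose, one of -0.29 (edgeR adjusted p = 0.033). The call of *RFNG* was lost without siNT replicate 3, siLTBP2 replicate 1 or siLTBP2 replicate 2 (adjusted p up to 0.080), and that of *POFUT1* without any library other than siNT replicate 2 (up to 0.11). *LFNG* was under 0.409 CPM in each library (edgeR adjusted p = 0.52).

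The 8 proteases examined gave 2 higher genes, 1 lower gene and 5 that did not pass. *FURIN*, the convertase that cuts the receptor precursor on its way to the surface, fell from 126 ± 20.7 to 70.4 ± 1.501 CPM (SD, n = 3). The libraries were at 141, 103 and 135 CPM in siNT and at 69.9, 72.2 and 69.3 CPM in siLTBP2, with no overlap (log2 fold change -0.84, SE 0.12, edgeR adjusted p = 0.00073). *ADAM17*, a sheddase with Notch among its many substrates, rose from 76.1 ± 4.14 to 125 ± 7.72 CPM (SD, n = 3, log2 fold change 0.71, edgeR adjusted p = 0.00034). For *ADAM10*, the main protease of ligand-dependent cleavage, the level was 593 ± 62.3 and 492 ± 66.6 CPM (SD, n = 3, edgeR adjusted p = 0.16). *APH1B*, a γ-secretase subunit, rose (log2 fold change 0.42, edgeR adjusted p = 0.010), and *PSEN2*, *NCSTN*, *APH1A* and *PSENEN*, which also code for subunits, had adjusted p-values from 0.070 to 0.97.

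Among the 15 ubiquitin and endocytic regulators, 14 were tested, of which 1 was higher and 4 lower. *NUMB*, an endocytic adaptor known as an inhibitor of Notch, rose from 117 ± 5.24 to 169 ± 9.77 CPM (SD, n = 3, log2 fold change 0.53, edgeR adjusted p = 0.0017). Its paralog *NUMBL* went the other way (log2 fold change -0.31, edgeR adjusted p = 0.037), a call that was lost with any 1 library left out (adjusted p from 0.050 to 0.11). *NEURL1*, a ubiquitin ligase for ligands, fell from 13.5 ± 2.58 to 7.60 ± 1.38 CPM (SD, n = 3, log2 fold change -0.83, edgeR adjusted p = 0.0070). *DTX3* of the Deltex family and *EPN1*, an epsin used in ligand endocytosis, fell by 0.53 and 0.50 on the log2 scale (edgeR adjusted p = 0.0053 and 0.0054). *MIB1*, the main ligase that activates ligands, was at 141 ± 1.89 and 150 ± 2.43 CPM (SD, n = 3, edgeR adjusted p = 0.49).

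None of the 7 genes of the nuclear complex passed (edgeR's quasi-likelihood test, no replicate block), with log2 fold changes from -0.24 (*CREBBP*) to 0.47 (*MAML3*). *MAML3* passed without siLTBP2 replicate 3 (0.68, edgeR adjusted p = 0.0077) and with no low-count filter (0.038). With a replicate block, *MAML3* and *CREBBP* passed (edgeR adjusted p = 0.0094 and 0.012). *RBPJ* was at 345, 328 and 322 CPM in siNT and at 382, 388 and 358 CPM in siLTBP2, which did not overlap but differed by 0.18 on the log2 scale (SE 0.085, edgeR adjusted p = 0.17). Of 9 corepressor genes examined, 1 was lower and 0 higher. *CTBP1*, which codes for a corepressor recruited by many DNA-binding proteins, was at 193, 194 and 216 CPM in siNT and at 118, 134 and 111 CPM in siLTBP2 (log2 fold change -0.74, SE 0.095, edgeR adjusted p = 0.00056). The groups lay apart, and the call held with any 1 library left out. The remaining genes *SPEN*, *HDAC1*, *CIR1*, *KDM5A*, *TLE1*, *TLE2*, *TLE3* and *TLE4* did not pass, with adjusted p-values from 0.090 to 0.87.

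The other HES genes and the feedback inhibitor gene *NRARP* were also at low levels. Of these 7 genes, 4 were tested and 0 passed (edgeR's quasi-likelihood test). *HES4* was at 2.73 ± 0.56 and 3.17 ± 0.52 CPM (SD, n = 3, edgeR adjusted p = 0.52) and *HES6* at 3.33 ± 0.79 and 2.65 ± 0.43 CPM (SD, n = 3, edgeR adjusted p = 0.32). *HES7* was at 0.995, 0.668 and 1.04 CPM in siNT and at 0.574, 0.656 and 0.512 CPM in siLTBP2, which did not overlap (log2 fold change -0.63, edgeR adjusted p = 0.13). For *NRARP* the log2 fold change was -0.21 (SE 0.36, edgeR adjusted p = 0.74). *HES3* and *HES5* had 0 counts in all 6 libraries.

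**Figure D4:**
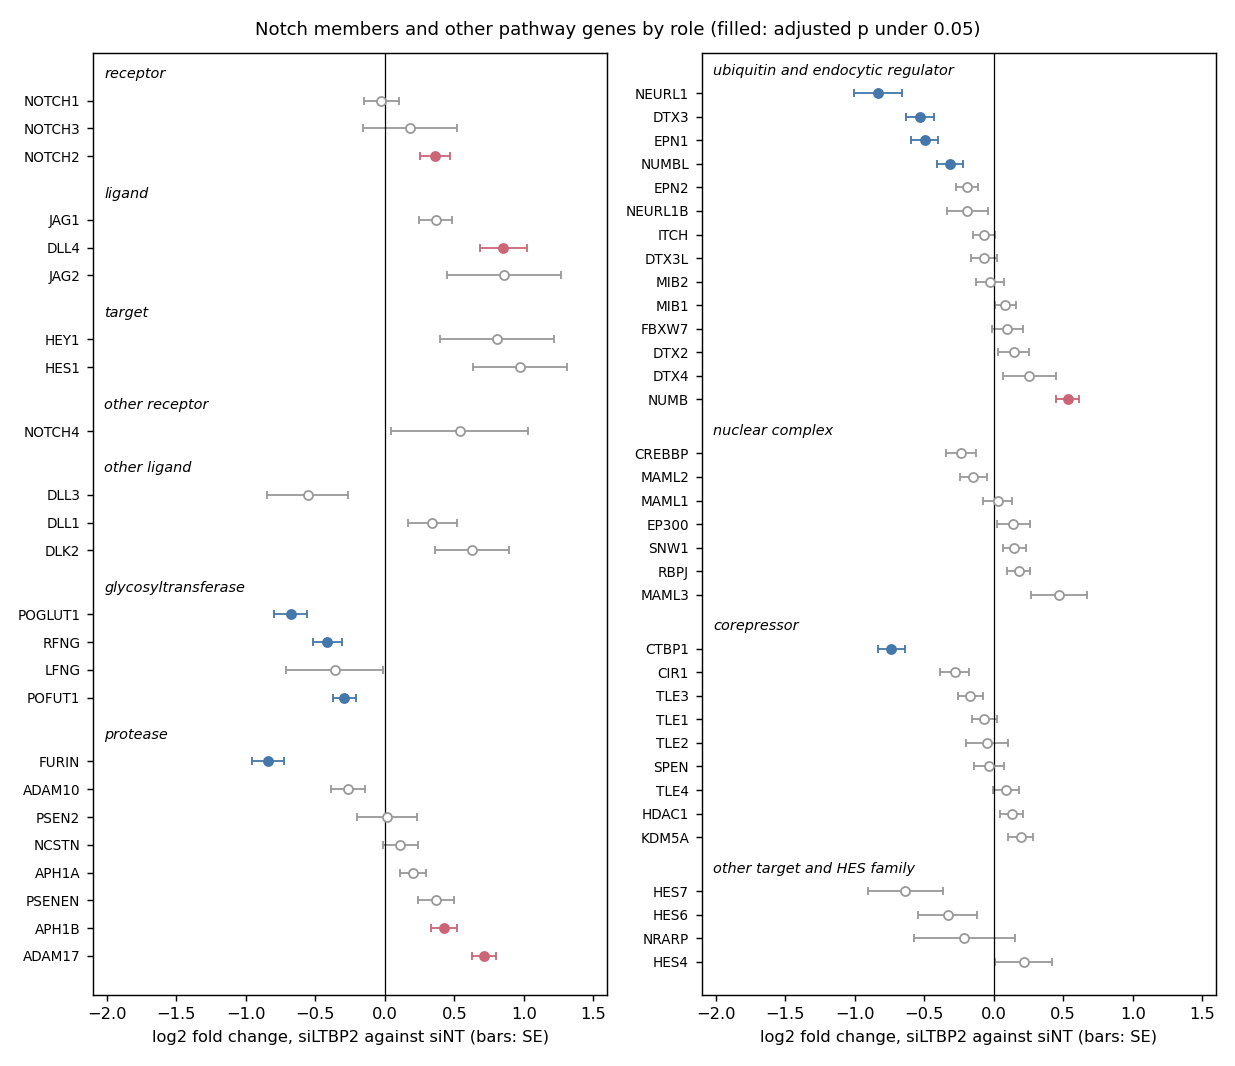
Log2 fold change (bars, standard error) of siLTBP2 against siNT for the 8 tested Notch genes and 50 further pathway genes, grouped by role and filled where the adjusted p was under 0.05, in red for higher and blue for lower. Filled red points are *NOTCH2*, *DLL4*, *APH1B*, *ADAM17* and *NUMB*, and the filled blue points lie among glycosyltransferases, proteases, ubiquitin and endocytic regulators and corepressors (*CTBP1*).

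Genes whose canonical 3′ UTR holds the short word GCACCCA, 1454 genes or 11.8% of those with such a UTR, had a median of -0.15 on the log2 scale (siLTBP2 over siNT), and genes lacking it one of 0.02. The word was present in the canonical 3′ UTRs of *NOTCH1* and *NOTCH3*, with 1 copy each, and absent from those of *NOTCH2*, *JAG1*, *JAG2*, *DLL4*, *HES1* and *HEY1*. Of the 9 further pathway genes that fell, 3 carried it (*POGLUT1*, *NEURL1* and *EPN1*), and of the 3 that rose none did. Of the 50 tested pathway genes 5 carried it, and the remaining carriers *EPN2* and *CREBBP* were not called. The length of the UTRs, 14177 bases in *EPN1*, was not taken into account. How the word was chosen is not recorded, so these medians are a description and not a test of it. The part of this word in the values above was not tested.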

How the data were processed

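RNA of 6 CCD18Co libraries, 3 siNT and 3 siLTBP2, was depleted of ribosomal RNA and sequenced from stranded libraries. The authors aligned the reads to GRCh38 with STAR (2.7.1a), counted them on genes with HTSeq (0.11.2) and deposited these raw counts, versions being those of the submitters' processing notes. For the strand option of HTSeq and the Ensembl release, the sources used here give nothing. GENCODE 44 holds 60462 of the 60663 identifiers, 95.7% of them with an unchanged start, as for all 10 Notch genes. No column was left out.

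Genes kept by edgeR's filterByExpr were scaled by TMM and tested with glmQLFit and glmQLFTest (edgeR 4.0.16, R 4.3.3, two-sided, no block), with Benjamini-Hochberg adjustment over 16920 genes. Standard errors are the log2 fold change over the square root of the test statistic. All 10 genes were named, with 56 further pathway genes described by role and named where called, where related to one of the 10 genes, or where their role in the pathway is central (the latter chosen after their values were seen). Some pathway genes are not reported here and were left out of the counts. The members and lists were chosen with earlier results of these data known. RPKM used the union of annotated exons, and promoters came from RefSeq (GRCh38.p14). Alternatives were the likelihood ratio test, DESeq2 1.42.0, scaling by RLE, upper quartile or total counts, no filter or 1 CPM in 3 libraries, a replicate block, other thresholds, canonical transcript lengths and leaving out each library. The settings listed with single genes above leave out the replicate block unless it is named. Libraries of one group differed by more than sampling noise (chi-square per degree of freedom from 24.57 to 48.12). The steps were tested on simulated data.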

Additional observations from a re-analysis of the deposited data

How the results depend on the processing

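The calls of *LTBP2* and *DLL4* held, in the same direction, under each of the 14 alternatives. The count of Notch genes at an adjusted p below 0.05, 2 in the main test, was 4 under the likelihood ratio test and DESeq2 (*JAG1* and *HES1* were added), 5 with no low-count filter, 4 at an adjusted p below 0.1, 1 at an adjusted p below 0.01, and between 1 and 3 with 1 library left out. The causes were not tested. Leaving out 1 library gave 9 to 11 further pathway genes in place of 12, 2158 to 2781 of all genes in place of 3261 (the lowest without siLTBP2 replicate 2), and 308 to 405 genes past the stricter thresholds in place of 434, which were 680 with no low-count filter. The count of further pathway genes past the stricter thresholds, whose alternatives were chosen after seeing the data, was 0 under each of the 14. With no low-count filter, the edgeR adjusted p was 4.53e-32 for *LTBP2* and 5.56e-10 for *DLL4*, at log2 fold changes of -1.73 and 0.84 near those of the main test. That of *JAG2* was 0.21. A small adjusted p from that fit therefore does not mean a larger difference than in the main test. *NOTCH1*, at -0.02, lay between -0.14 and 0.09 with 1 library left out (0.085 without siNT replicate 1 and 0.080 without siLTBP2 replicate 3). With canonical transcript lengths the share of *NOTCH2* in siNT was 79.3%, that of *JAG1* 49.6% in siNT and 43% in siLTBP2, and that of *HES1* 77.4% in siNT and 77.8% in siLTBP2, since exon unions lengthen genes unequally.

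The labels number both groups 1 to 3. Deviations from the group mean, compared between libraries of one number, correlated at 0.30, 0.083 and 0.43, not all above 0.1. Between libraries of unlike number they correlated at -0.39 to 0.10, and siNT replicate 2 correlated best with siLTBP2 replicate 1 (0.10). No label states a pairing, and no pairing was assumed in the main test. With the replicate block, 5 Notch genes passed, with *JAG1* (adjusted p = 0.00038), *HES1* (5.05e-05) and *HEY1* (0.012) added to *NOTCH2* and *DLL4*, as did 21 further pathway genes and 6131 of all genes (edgeR's quasi-likelihood test). *ADAM10* (edgeR adjusted p = 0.0044), *MAML3* (0.0094), *KRT8* (0.011), *VWF* (0.012) and *CREBBP* (0.012), which did not pass in the main test, were among those that passed with the block. Counts under 30 per library, as for *NOTCH3* and *JAG2*, limit what these libraries can show.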
